A study of Rattus norvegicus with 4 samples.

Results

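The 8 genes described here encode enzymes of the mevalonate pathway on the route from acetoacetyl-CoA to squalene epoxide: Acat2, Mvk, Pmvk, Mvd, Idi1, Fdps, Fdft1 and Sqle. Their probe sets were picked by annotated gene symbol, and the set of genes was proposed with earlier results of these data known. They account for 8 of the 14217 genes with a symbol of their own on the array and for 12 of its 31099 probe sets. Primary granulosa cells, the somatic cells that line the ovarian follicle and make its steroids, came from female Sprague-Dawley rats of 23 to 25 days that had been given estradiol. All cultures were kept without serum on dishes precoated with 1% serum, and all received an adenovirus for 4 h followed by 24 h of treatment. The 4 groups, with 1 array each, were GFP vehicle (control vector with green fluorescent protein, no hormone), GFP FSH (the same vector with follicle-stimulating hormone at 100 ng/ml), FOXOA3 FSH (FOXO1, a forkhead transcription factor, made constitutively active, with FSH) and FOXOA3-mDBD FSH (its mutant in the DNA-binding domain, with FSH). No group had an uninfected culture, and neither FOXO1 vector was measured without FSH. The labels do not say whether an array held RNA of 1 culture or of several pooled ones.

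The mevalonate pathway builds isoprenoid units from acetyl-CoA, and cells use them for cholesterol, dolichol, ubiquinone and the lipid anchors of proteins. Its genes are textbook targets of the sterol-sensing SREBP transcription factors, which act on their promoters together with NF-Y and Sp1. Granulosa cells draw on cholesterol as the starting material of steroid hormones, and FSH drives that synthesis through cAMP. Active FOXO1 is known as a nuclear factor that FSH and growth factor signalling hold in check. The steps between Acat2 and Mvk were not analysed here.

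All 8 genes had their highest signal on the GFP FSH array, although Idi1 differed from the others on the FOXO1 arrays. Their promoters are shown first, as far as RefSeq's table of promoters (rat build GRCr8) held them, which was 5 of 8. No link between promoter letters and signals was tested. The window was the 250 bases before the annotated start. The promoter of Idi1 lies at chr17:66547525-66547774, that of Mvk at chr12:47819504-47819753 and that of Fdps at chr2:176804817-176805066, all on the minus strand. Idi1 and Mvk are printed because they stood at opposite ends of the 8 genes with the FOXO1 mutant, and Fdps as a further window that, like Mvk, held both motifs marked. Capitals mark matches, on either strand, to CCAAT (the NF-Y motif, ATTGG on the other strand) and to GGGCGG (the Sp1 motif, CCGCCC on the other strand).
Idi1: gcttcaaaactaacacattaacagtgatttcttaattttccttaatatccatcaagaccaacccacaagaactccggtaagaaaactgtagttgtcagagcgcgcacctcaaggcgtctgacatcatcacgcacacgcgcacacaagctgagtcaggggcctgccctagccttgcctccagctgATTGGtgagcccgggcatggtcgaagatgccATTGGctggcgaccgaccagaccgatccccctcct
Mvk: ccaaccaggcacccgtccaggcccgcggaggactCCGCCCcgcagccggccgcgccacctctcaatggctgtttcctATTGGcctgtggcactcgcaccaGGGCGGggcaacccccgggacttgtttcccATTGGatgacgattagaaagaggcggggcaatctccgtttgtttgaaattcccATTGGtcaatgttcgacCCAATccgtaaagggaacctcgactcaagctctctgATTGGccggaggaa
Fdps: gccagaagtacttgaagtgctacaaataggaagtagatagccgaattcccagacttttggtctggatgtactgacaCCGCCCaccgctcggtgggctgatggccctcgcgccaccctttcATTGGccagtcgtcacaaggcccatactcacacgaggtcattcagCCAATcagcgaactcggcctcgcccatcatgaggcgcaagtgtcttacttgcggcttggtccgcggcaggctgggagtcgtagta

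CCAAT was found in 4 of the 5 windows, with 5 matches in Mvk, 2 in Idi1, 2 in Fdps and 1 in Mvd, and in 34.0% of all 33469 promoter windows of the same length. GGGCGG was found in Acat2, Mvk, Mvd and Fdps, and in 30.5% of all windows. The sterol element letters TCACNCCA had no match in the 5 windows, against 3.24% of all windows. Their shorter form CACNCCA, which every match of the longer form contains, was found in Acat2 alone, in 2 places, and in 14.4% of all windows. The forkhead letters GTAAACA (3.21% of all windows), the cAMP response element TGACGTCA (1.59%) and the E-box CACGTG (5.59%) had no match in the 5 windows. These are descriptions of letters in a short window and not of factor binding. GC content was 52.8% in the Idi1 window and between 56.8% and 65.6% in the other 4, against a median of 51.2% for all windows.

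**Figure D1:**
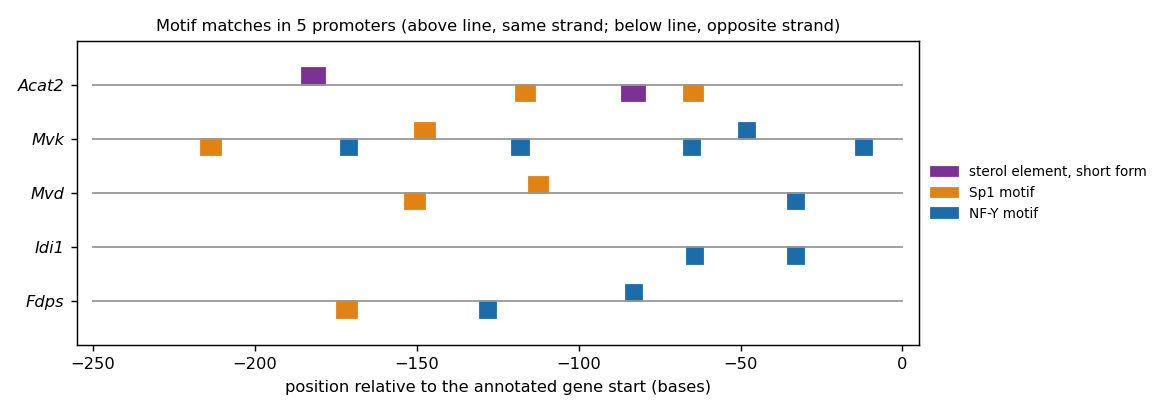
Motif matches in the 250 bases before the annotated start of 5 of the 8 genes, with position relative to the start on the x axis, matches on the gene's strand above each line and on the opposite strand below it. Mvk held 5 NF-Y matches and Idi1 2, while Acat2 held none.

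Values were MAS5 signals, an intensity per probe set on a linear scale, and ratios were taken after raising signals under a floor of 100.5, the median of all non-control probe sets, to that floor. The threshold for calling a gene higher or lower was a 2-fold difference. No group had a replicate, so that no difference below has an error or a test, and the spread between cultures is unknown. Between 47.9% and 52.8% of probe sets were above the floor on an array. Spike RNAs added before labelling stood at 21.4 (geometric mean signal) with GFP vehicle and 22.6 with FOXOA3 FSH but at 394.6 and 539.4 on GFP FSH and FOXOA3-mDBD FSH, and the 3' to 5' signal ratio of beta-actin ran from 5.15 on GFP vehicle to 12.0 on GFP FSH. The comparison of FOXOA3-mDBD FSH with GFP FSH and that of FOXOA3 FSH with GFP vehicle therefore set arrays of like spike level side by side, and the others did not. The part of the spike level in any result was not tested.

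Granulosa identity was checked on 11 markers, of which 10 or 11 were above the floor on each array. In the order of the groups above, the inhibin subunit Inha had signals of 9571, 29569, 11433 and 4267. Fshr, the receptor of FSH, was not analysed here. Markers of theca, stroma and smooth muscle were also present, with 9, 7, 9 and 5 of 12 above the floor and summed signals of 31208, 15661, 35880 and 5387 in the same order. Of 8 leukocyte markers, 2 to 4 were above the floor on an array, with Cd14 (726.7 to 2577) and Lyz2 (376.1 to 1266) above it on every array and the pan-leukocyte marker Ptprc (13.7 to 81.7) under it on every array. Of 5 endothelial markers 1 or 2 were above the floor, with Kdr (123.3 to 376.3) above it and Pecam1 (14.3 to 42.4) under it throughout, and of 5 oocyte markers 2 or 3, among them Gdf9 at 130.3 to 477.5. In RNA from whole cultures, a change in the share of a cell type and a change in RNA per cell cannot be told apart.

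All 8 genes had their highest signal on the GFP FSH array. By the brightest probe sets, the lowest signal of 6 of them was on FOXOA3-mDBD FSH, that of Fdft1 on FOXOA3 FSH and that of Idi1 on GFP vehicle. The second probe set of Fdft1 was lowest on FOXOA3-mDBD FSH, at 624.9. The brightest probe set of each gene was above the floor on all 4 arrays, so that none of these folds is a bound. In the order of the pathway, the signals were as follows.

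Acat2, the cytosolic thiolase that joins acetyl-CoA units into acetoacetyl-CoA (and not the sterol acyltransferase once given the same name), had a signal of 2217 with GFP vehicle, which was 6851 with GFP FSH, 2398 with FOXOA3 FSH and 2124 with the mutant. It was 3.09-fold higher with FSH, and on both FOXO1 arrays it stood within 1.08-fold of the vehicle array.

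Mvk, the kinase that phosphorylates mevalonate, was read by 3 probe sets. The brightest gave 522.5, 1292, 359.2 and 169.6 in the same order of arrays, so that its FOXOA3-mDBD FSH signal was the lowest of its 4. The second gave 195.3, 533.4, 154.4 and 95.3 and kept this order, although its last value was under the floor. The third, with 4.0, 22.8, 8.5 and 6.5, was under the floor on every array and has no fold. Pmvk, which adds the next phosphate, had signals of 1769, 2970, 1114 and 670.6, with both FOXO1 arrays under the vehicle array. Mvd, the decarboxylase that yields isopentenyl diphosphate, had signals of 468.9, 1563, 552.5 and 291.8.

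Idi1, the isomerase that interconverts isopentenyl and dimethylallyl diphosphate, had signals of 2133, 12556, 6185 and 7795. Its other probe set gave 1551, 12255, 5652 and 5521. On both probe sets the 2 FOXO1 arrays lay between GFP vehicle and GFP FSH, which held for none of the other 7 genes. It was not particular to Idi1 among the related genes described below. Dhcr7, a later enzyme of cholesterol synthesis, had signals of 2164, 12642, 4193 and 3735, and Lrp8 and Scarb1 also lay between. These genes were named here after their values were seen. Fdps, the farnesyl diphosphate synthase, had signals of 9545, 20501, 5793 and 4758, with both FOXO1 arrays under the vehicle array.

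Fdft1, the squalene synthase that commits farnesyl diphosphate to sterols, had signals of 1091, 5150, 988.8 and 1090, so that GFP FSH stood alone above 3 similar arrays. Its second probe set gave 725.2, 3450, 892.8 and 624.9. Sqle, the epoxidase that makes squalene epoxide, had signals of 1489, 6353, 1464 and 1208, again with GFP FSH alone above the others.

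**Figure D2:**
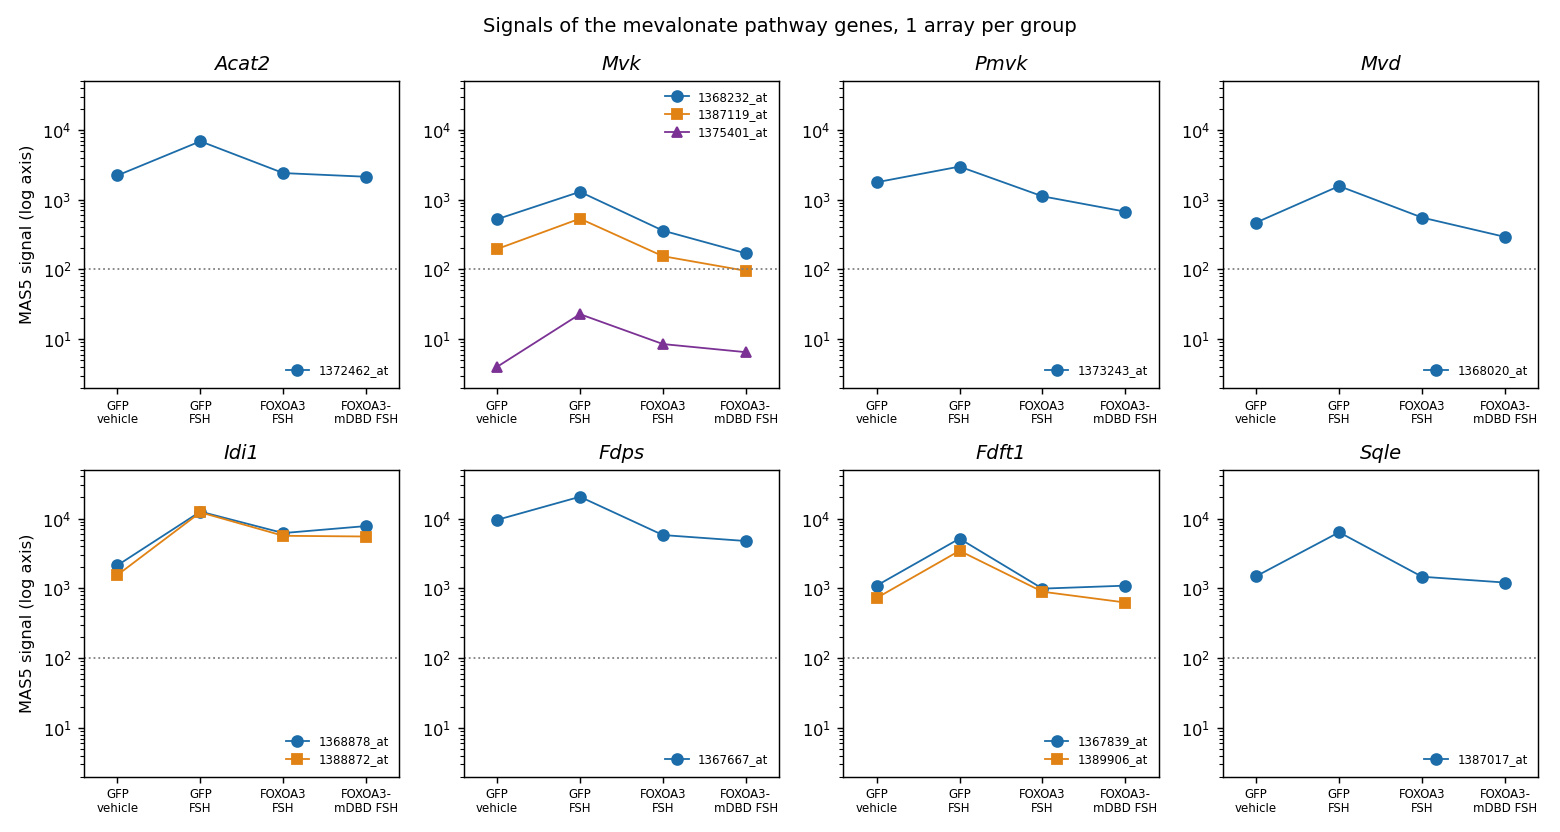
MAS5 signal on a log axis for each of the 12 probe sets of the 8 genes on the 4 arrays, 1 panel per gene, with the floor of 100.5 dotted. GFP FSH is the peak in every panel, and Idi1 alone stays well above GFP vehicle on both FOXO1 arrays.

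GFP FSH against GFP vehicle compares the array with hormone and the array without it, both with the control vector. Their spike levels were 394.6 and 21.4 and their beta-actin 3' to 5' ratios 12.0 and 5.15. The part of these in the result was not tested. Of the 8 genes 7 were 2-fold or more higher and 0 lower, whereas 6.84% of the 9578 measured genes were higher and 11.1% lower. The median log2 ratio of the 8 genes was 1.68, a 3.21-fold difference, and that of all measured genes was 0.00. Idi1 was 5.89-fold higher, a ratio that 0.679% of measured genes exceeded, and Fdft1 and Sqle, the pair of enzymes at the head of the sterol branch, were 4.72-fold and 4.27-fold higher. Mvd was 3.33-fold higher, Mvk 2.47-fold and Fdps 2.15-fold. Pmvk was 1.68-fold higher and did not reach the threshold.

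The other readable probe sets gave 7.90-fold for Idi1, 4.76-fold for Fdft1 and 2.73-fold for Mvk. Fdps had a log2 ratio of 1.10 that was 0.63 after quantile normalization and 0.64 after loess, under the threshold in both. Mvk was at 0.92 when its 3 probe sets were averaged, the one under the floor included. Summed granulosa marker signal was 84367 with FSH and 26328 without it. Among its larger parts were Inha (29569 beside 9571) and Cyp19a1 (13042 with FSH and under the floor without it). Foxl2 (3536 beside 5546) and Amh (110.9 beside 136.5) went the other way. The sum for theca, stroma and smooth muscle markers was 15661 with FSH and 31208 without it. Of those above the floor, Ogn (12973 beside 9115) went the other way. The part of these markers in the result was not tested.

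FOXOA3 FSH against GFP FSH compares the array with active FOXO1 and the array with the control vector, both with hormone. All 8 genes were 2-fold or more lower, against 6.99% of the 9941 measured genes that were lower and 11.1% that were higher, and their median log2 ratio was -1.67 beside 0.04 for all genes. This comparison shares the GFP FSH array with the one before, so that the size of one bears on the other. Fdft1 was 5.21-fold lower, Sqle 4.34-fold, Mvk 3.60-fold and Fdps 3.54-fold. Acat2, Mvd and Pmvk were 2.86-fold, 2.83-fold and 2.67-fold lower. Idi1 was 2.03-fold lower, the smallest difference of the 8, and its log2 ratio of -1.02 was -0.63 after quantile normalization and -0.57 after loess, short of the threshold. Its other probe set gave 2.17-fold. Summed granulosa marker signal was 33994 with FOXOA3 beside 84367 on GFP FSH. Foxl2 (4297 beside 3536), Fst (4212 beside 3800) and Amh (141.1 beside 110.9) went the other way. The sum for theca, stroma and smooth muscle markers was 35880 beside 15661, with decorin (Dcn) at 12504 beside 485.2. Ogn (2562 beside 12973) and Lum (98.8 beside 215.8) were lower, as was Cyp17a1, under the floor on both arrays. Spike level differed too, and the part of these in the result was not tested.

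The DNA-binding mutant was compared with the same GFP FSH array, at a like spike level. Of the 8 genes 7 were 2-fold or more lower and 0 higher, beside 19.1% of 9748 measured genes lower and 12.5% higher. The median log2 ratio was -2.19, and that of all genes was -0.16. Mvk was 7.62-fold lower, Mvd 5.36-fold, Sqle 5.26-fold, Fdft1 4.72-fold, Pmvk 4.43-fold and Fdps 4.31-fold. Acat2 was 3.23-fold lower. Idi1 was 1.61-fold lower by its brightest probe set, a ratio that 29.3% of measured genes fell below, and 2.22-fold lower by the other, so that its probe sets lay on opposite sides of the threshold. Summed granulosa marker signal was 16933 with the mutant beside 84367 on GFP FSH, with Foxl2 at 994.1 beside 3536 and Gata4 at 358.1 beside 3762. The sum for theca, stroma and smooth muscle was 5387 beside 15661, with Ogn at 3329 beside 12973. Of those above the floor, Fn1 (543.5 beside 389.0) and Acta2 (214.6 beside 192.4) went the other way. The part of either sum in the result was not tested.

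**Figure D3:**
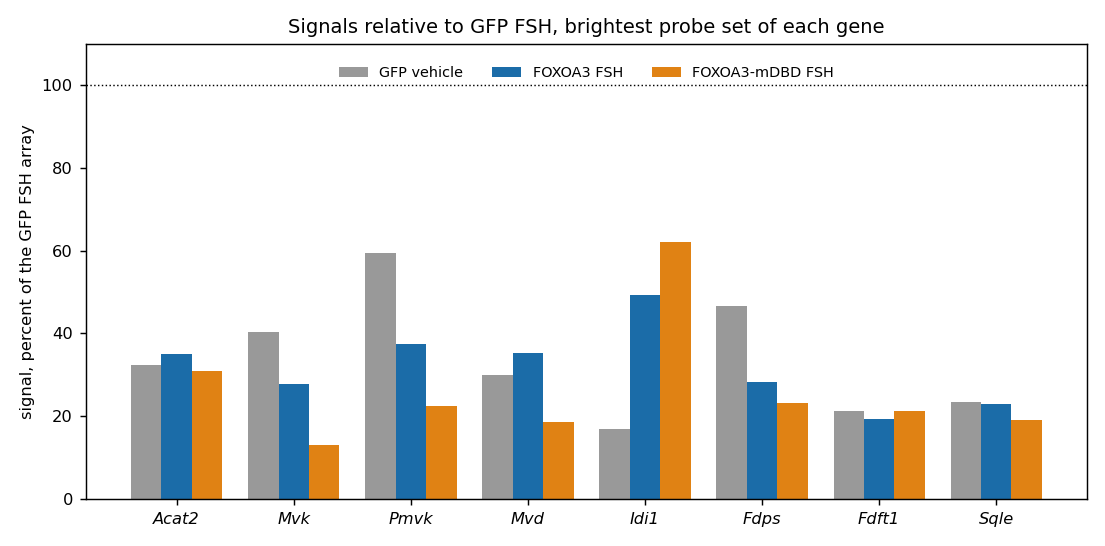
Signal of the brightest probe set of each gene as a percentage of its GFP FSH signal (dotted line at 100) on the other 3 arrays. Idi1 stands at 49.3% and 62.1% on the FOXO1 arrays, and the other 7 genes between 13.1% and 37.5%.

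Expressed as a share of the GFP FSH signal, the 7 genes other than Idi1 stood between 19.2% (Fdft1) and 37.5% (Pmvk) on FOXOA3 FSH and between 13.1% (Mvk) and 31.0% (Acat2) on FOXOA3-mDBD FSH. On GFP vehicle the same 7 lay between 21.2% (Fdft1) and 59.6% (Pmvk). By its brightest probe set Idi1 was at 17.0% on GFP vehicle, the lowest of the 8. On FOXOA3 FSH and FOXOA3-mDBD FSH it was at 49.3% and 62.1%, the highest of the 8. Its other probe set stood at 12.7%, 46.1% and 45.0% in the same order. The gene with the largest FSH difference was thus the one with the smallest difference under either FOXO1 vector. No test of this difference between genes was possible with 1 array per group.

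FOXOA3 FSH against GFP vehicle compares active FOXO1 plus hormone with the untreated control. The arrays were of like spike level but had beta-actin 3' to 5' ratios of 9.79 and 5.15. Of the 8 genes 1 was 2-fold higher and 0 lower, beside 5.32% of 9904 measured genes higher and 4.01% lower, and the median log2 ratio was -0.08 beside 0.01 for all genes. The higher one was Idi1, at 2.90-fold by its brightest probe set and 3.64-fold by the other. The 7 others had log2 ratios between -0.72 (Fdps) and 0.24 (Mvd). Sqle differed by 1.02-fold and Fdft1 by 1.10-fold.

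FOXOA3-mDBD FSH against GFP vehicle does the same for the mutant. The arrays differed in spike level (539.4 and 21.4) and had beta-actin 3' to 5' ratios of 10.7 and 5.15. Summed granulosa marker signal was 16933 beside 26328, although Inhbb, Cyp19a1, Nr5a2 and Hsd17b1 were higher with the mutant. The sum for theca, stroma and smooth muscle was 5387 beside 31208. Of that list only Cyp17a1, under the floor on both arrays, was higher. The part of these in the result was not tested. Idi1 was again the higher one, at 3.65-fold and 3.56-fold by its probe sets, and Mvk (3.08-fold), Pmvk (2.64-fold) and Fdps (2.01-fold) were lower, beside 13.0% of 9861 measured genes higher and 22.5% lower. Fdps lay at the threshold, and its log2 ratio was -0.83 after centring on the median of all genes. Mvk was at -0.86 with its 3 probe sets averaged. Fdft1 differed by 1.00-fold, Acat2 by 1.04-fold and Sqle by 1.23-fold. The median log2 ratio of the 8 genes was -0.49, and that of all genes -0.17. Both comparisons with GFP vehicle share that array with GFP FSH against GFP vehicle. Over the 7 other settings tried, the log2 ratio of Idi1 ran from 1.52 to 1.70 with FOXOA3 and from 1.70 to 2.04 with the mutant.

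FOXOA3 FSH against FOXOA3-mDBD FSH sets the active factor against its mutant. Mvk was the 1 gene of the 8 past the threshold, 2.12-fold higher with FOXOA3, and 0 were lower, while 19.0% of 10092 measured genes were higher and 9.24% lower. Its log2 ratio of 1.08 was under 1 in 5 of the 7 other settings, down to 0.46 after loess. Its second probe set was at least 1.54-fold higher, the mutant's signal being under the floor. Mvd was 1.89-fold and Pmvk 1.66-fold higher, and the other 5 genes were within 1.26-fold by their brightest probe sets. Fdft1 was 1.10-fold lower with FOXOA3 by its brightest probe set and 1.43-fold higher by the other. Idi1 was likewise 1.26-fold lower by its brightest probe set and 1.02-fold higher by the other. The median log2 ratio was 0.28 beside 0.21 for all genes. Summed theca, stroma and smooth muscle marker signal was 35880 with FOXOA3 and 5387 with the mutant, although Ogn was at 2562 and 3329. The granulosa sum was 33994 with FOXOA3 and 16933 with the mutant, and every granulosa marker read was higher with FOXOA3. Spike levels were 22.6 and 539.4. The part of these markers and of the spike level in these differences was not tested.

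**Figure D4:**
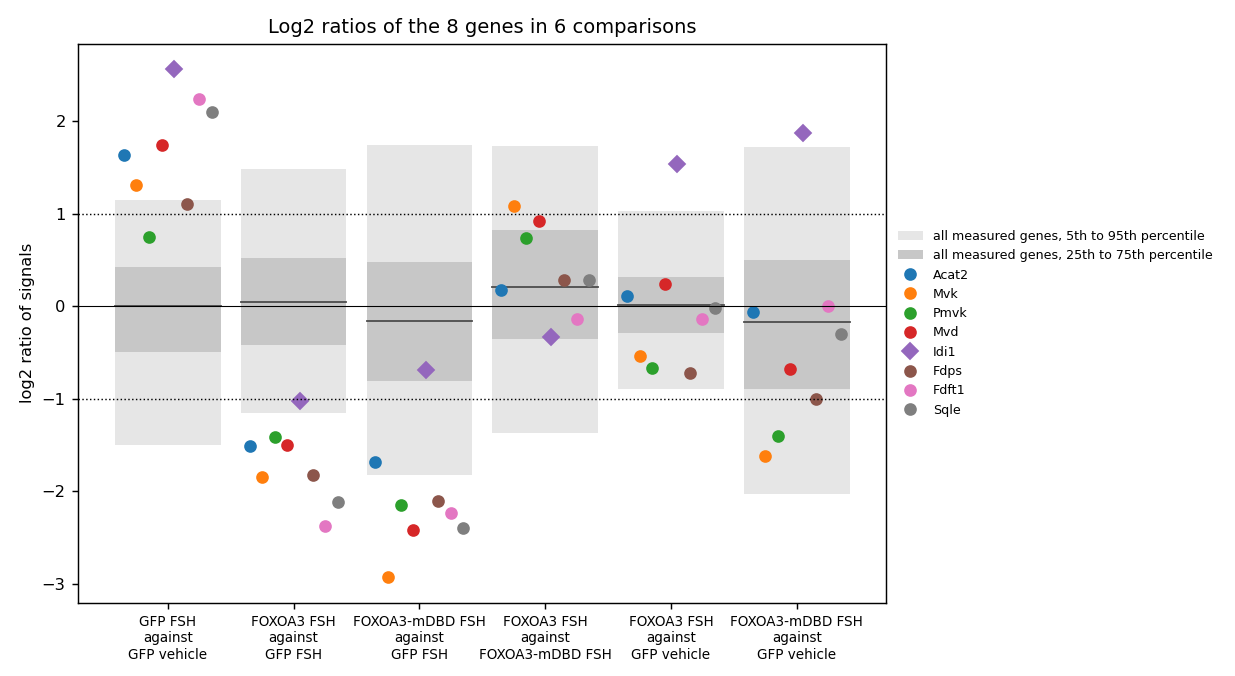
Log2 ratio of each of the 8 genes (points, Idi1 as diamonds) in the 6 comparisons, over the 5th to 95th and 25th to 75th percentiles and the median line of all measured genes, with dotted lines at a fold of 2. The genes lie at or beyond the upper edge in GFP FSH against GFP vehicle except Pmvk at 0.75 and Fdps at 1.10, and Idi1 is the highest point in both comparisons of a FOXO1 array with GFP vehicle.

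Neighbouring parts of the pathway were read from lists of related genes. Their counts stand beside the same shares of all measured genes as above: 6.84% higher and 11.1% lower with FSH, 11.1% and 6.99% with FOXOA3, and 12.5% and 19.1% with the mutant. Of 10 post-squalene sterol enzymes, which turn squalene epoxide into cholesterol, 9 were 2-fold higher with FSH (median log2 ratio 1.84), 9 were lower with FOXOA3 (-1.93) and 9 were lower with the mutant (-2.19), each against GFP FSH. With FSH the largest ratios were those of Hsd17b7 (8.29-fold), Tm7sf2 (6.27-fold), Dhcr7 (5.84-fold) and the isomerase Ebp (4.11-fold). With FOXOA3 they were those of Tm7sf2 (7.25-fold lower), Hsd17b7 (6.07-fold), the cyclase Lss (5.41-fold) and Nsdhl (5.21-fold). With the mutant they were those of Hsd17b7 (11.6-fold lower), Lss (7.24-fold), Tm7sf2 (6.37-fold) and Ebp (6.26-fold). The exception in all 3 comparisons was Lbr, named after its values were seen, with log2 ratios of -0.39, 0.82 and 0.50. Lbr is the nuclear envelope protein whose sterol reductase activity overlaps with that of Tm7sf2.

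Of 6 genes that supply cytosolic acetyl-CoA and reducing power, 2 were higher with FSH, namely the malic enzyme Me1 (2.93-fold) and the citrate carrier Slc25a1 (2.07-fold), for a median log2 ratio of 0.72. With FOXOA3, 2 were lower against GFP FSH, the acetyl-CoA synthetase Acss2 (5.26-fold) and Me1 (2.58-fold), and the median was -0.88. With the mutant 5 of 6 were lower, led by Acss2 (4.29-fold), Me1 (3.88-fold), Slc25a1 (3.55-fold) and the cytosolic isocitrate dehydrogenase Idh1 (2.84-fold), with a median of -1.67.

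Of 11 SREBP factors and regulators, 2 were higher and 1 lower with FSH (median log2 ratio 0.10), 1 was higher and 2 lower with FOXOA3 (-0.17), and 5 were lower with the mutant (-0.93). A count of 1 of 11 is near those shares. The 2 higher with FSH, Srebf1 (2.42-fold) and the sterol sensor Insig1 (2.19-fold), were also the 2 that were lower with FOXOA3, at 3.26-fold and 3.11-fold, and they were lower with the mutant at 7.25-fold and 3.86-fold. The others named with the mutant are Srebf2 (3.09-fold lower) and Sp1 (2.32-fold lower). Nfya, a subunit of the factor that binds CCAAT, was 2.99-fold lower with FSH and 2.98-fold higher with FOXOA3 against GFP FSH. Its signals were 1799 and 1792 on GFP vehicle and FOXOA3 FSH, and 601.4 and 583.6 on GFP FSH and FOXOA3-mDBD FSH. At like spike level it differed by 1.03-fold (FOXOA3-mDBD FSH against GFP FSH) and 1.00-fold (FOXOA3 FSH against GFP vehicle). The part of the spike level in the Nfya ratios was not tested. Of 7 genes of lipoprotein uptake and sterol transport, 4 were higher and 1 lower with FSH, and 4 and 5 were lower with FOXOA3 and the mutant, with medians of 1.42, -1.26 and -1.72. With FSH the receptor Scarb1 was 28.8-fold, the lipoprotein receptor Lrp8 8.03-fold, the sterol carrier Stard4 3.54-fold and the exporter Abcg1 2.68-fold higher. Against GFP FSH, Lrp8, Stard4, Scarb1 and the exporter Abca1 were 4.86-fold, 3.89-fold, 2.68-fold and 2.40-fold lower with FOXOA3. With the mutant Lrp8, Scarb1 and Stard4 were 6.26-fold, 5.21-fold and 4.47-fold lower, and Abcg1 at least 3.28-fold lower.

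**Figure D5:**
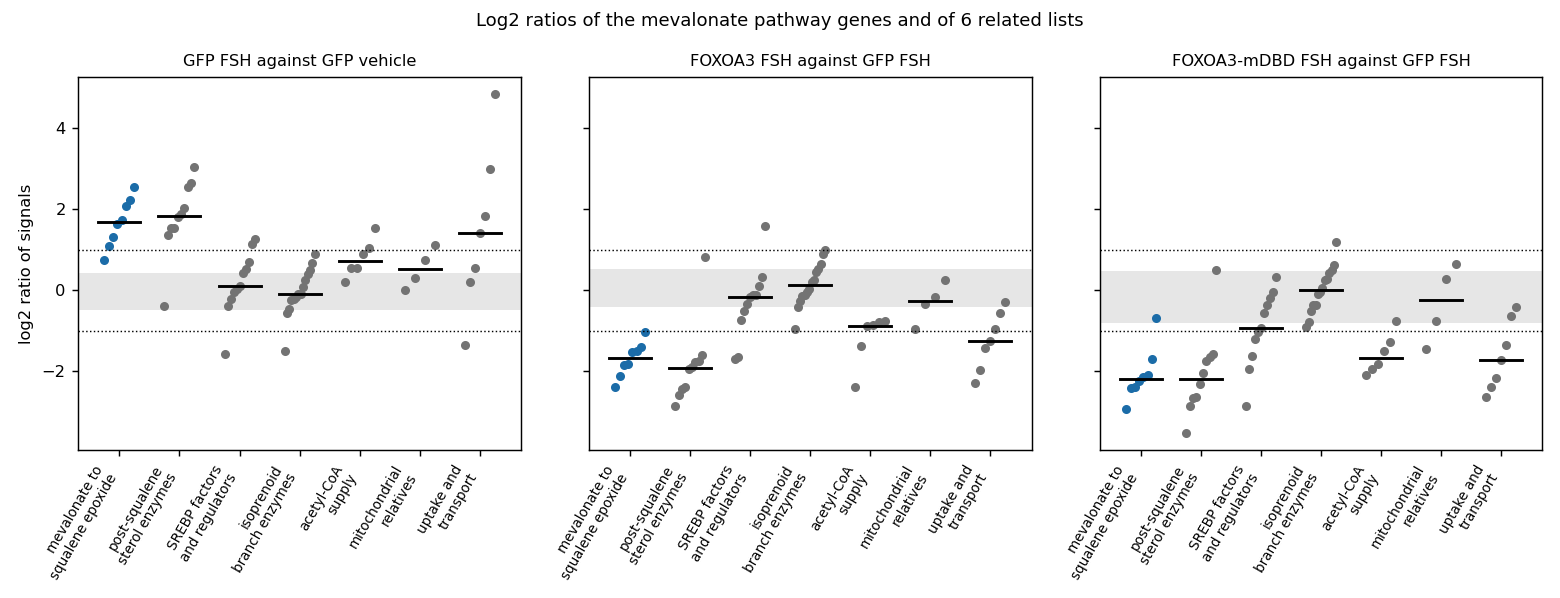
Log2 ratios of the 8 genes (blue) and of the 6 related lists (grey) in the 3 comparisons of the hormone or a FOXO1 vector with its GFP control, with a bar at each median, the 25th to 75th percentile of all measured genes shaded and dotted lines at a fold of 2. The mevalonate and post-squalene genes have medians of 1.68 and 1.84 with FSH, and the isoprenoid branch enzymes one of -0.10.

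The last lists hold enzymes of the isoprenoid branches other than sterols, around farnesyl and geranylgeranyl diphosphate, and mitochondrial relatives of the 8. Of 14 genes of the first kind, among them prenyltransferases, dolichol and ubiquinone enzymes, 0 were higher and 1 lower with FSH (median log2 ratio -0.10), none reached the threshold either way with FOXOA3 (0.12), and 1 was higher with the mutant (0.00), counts near or under the shares of all genes. The lower one was Dhdds, a subunit of the cis-prenyltransferase of dolichol synthesis, at 2.85-fold, and the higher one Pggt1b, a subunit of an enzyme that attaches geranylgeranyl groups to proteins, at 2.29-fold. Between the FOXO1 arrays 2 of the 14 were higher with FOXOA3, Coq2 (2.07-fold) and Dhdds (at least 2.06-fold), and 2 were lower, Rabggtb (2.60-fold) and Pggt1b (2.34-fold), where 19.0% and 9.24% of all genes were. Against GFP vehicle 2 were higher with the mutant, Rabggtb (2.49-fold) and Pggt1b (2.15-fold), and Dhdds was at least 2.96-fold lower. Of all genes 13.0% were higher and 22.5% lower in that comparison, so that these counts are near or under those shares. Of 4 mitochondrial relatives, 1 was higher with FSH, the thiolase Acaa2 at 2.17-fold, which was 2.74-fold lower with the mutant. Acat1, the mitochondrial counterpart of Acat2, was 1.67-fold higher with FSH and 1.95-fold lower with FOXOA3, under the threshold in both.

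The genes whose pattern over the 4 arrays lay nearest to the mean pattern of the 8 were found by the root mean square distance between log2 signals centred on each gene's mean, among 10399 other genes. With 4 arrays many genes come close, and the ranking is a description. Nearest was Pgap2, a factor of lipid remodelling of GPI anchors, at 0.054, with signals of 379.7, 1181, 380.9 and 265.9 in the order of arrays used above. It was followed by the collagen receptor Ddr2 (0.070), the lysophospholipid acyltransferase Lpcat3 (0.073), Tmem184c (0.082) and the sterol carrier Stard4 (0.094). The distance of Ddr2 rests on a FOXOA3-mDBD FSH signal of 61.9 that was raised to the floor. Next were the replication licensing factor Cdt1 (0.097), the protein kinase A subunit Prkar2b (0.10), the hedgehog ligand Dhh (0.10), Bcar3 (0.11) and Me1 (0.12). None of the 10 was a post-squalene enzyme, of which Sc5d came nearest at rank 14 (0.14). The 8 genes themselves lay between 0.15 (Acat2) and 0.84 (Idi1) from their mean.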

How the data were processed

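The values were microarray intensity values of 4 arrays, 1 per group, deposited by the authors on a linear scale. The submitters' processing notes name MAS5 without a version. This method subtracts mismatch signal and scales each array to a common mean, which hides differences in total RNA per cell. The 2% trimmed means were 500.1 to 500.2, so no scaling was added.

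A table of platform annotation named 1 gene for 20826 non-control probe sets, left 9780 unnamed and gave more than 1 symbol to 436. The 57 control probe sets were left out of gene values. Each gene was represented by its brightest probe set over the 4 arrays. Signals under 100.5 were raised to it, and a gene was measured in a comparison if the higher signal exceeded that floor. Where the dimmer signal was under the floor, a fold is a bound ("at least"). Calls were made at a fold of 2. With 1 array per group no p-values were computed, and the number of arrays limits the precision.

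The alternatives were another floor, a pseudocount, quantile normalization, centring, loess, averaging of probe sets and a filter on dim genes. All 8 genes are named, with the 4 largest ratios at 2-fold or more of each related list in the comparisons described for it and the 10 nearest patterns. The 8 genes and the lists were chosen with earlier results of these data known. Python 3.11.15, pandas 2.3.3, statsmodels 0.14.6 and matplotlib 3.10.9 were used. The ratio step was tested on simulated data.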

Additional observations from a re-analysis of the deposited data

How the results depend on the processing

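Under 7 other settings (floor at the 25th percentile, a pseudocount of 32 with no floor, quantile normalization, centring, loess, averaged probe sets, a filter at the 75th percentile), the median log2 ratio of the 8 genes ran from 1.62 to 1.68 for GFP FSH against GFP vehicle, from -1.71 to -1.45 for FOXOA3 FSH and from -2.19 to -2.03 for FOXOA3-mDBD FSH, both against GFP FSH. Against GFP vehicle it ran from -0.10 to 0.03 with FOXOA3 and from -0.49 to -0.18 with the mutant, and between the FOXO1 arrays from 0.08 to 0.39. The genes past 2-fold numbered 6 or 7, 7 or 8, and 7 in the first 3 comparisons. For FOXOA3 FSH against FOXOA3-mDBD FSH the count of 1 became 0 with the pseudocount, quantile normalization, centring, loess, averaged probe sets and the dim-gene filter, under which Mvk was not measured. Of 332 values of single genes, 4 moved by over 1.5-fold, all of Mvk, and 0 changed sign among those past 2-fold. Among genes still measured, 181 calls were kept, 13 were lost and 0 gained. The Mvk calls between the FOXO1 arrays and for the mutant against GFP vehicle could not be read under the dim-gene filter. They are in none of these counts. No paired analysis was possible because each group had 1 array. Dim probe sets have uncertain MAS5 ratios, which touches Mvk most.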

Other observations

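Set against the GFP vehicle array, 0 of the 10 post-squalene enzymes were past 2-fold with FOXOA3 (median log2 ratio -0.12), where 5.32% of all measured genes were higher and 4.01% lower. The largest ratio was that of Dhcr7, 1.94-fold higher with FOXOA3 and 1.73-fold higher with the mutant. With the mutant 1 of the 10 was past 2-fold, Lss at 2.06-fold lower (median -0.26), where 13.0% of all genes were higher and 22.5% lower. The counts with FOXOA3 and with the mutant are thus near or under those shares. Scarb1, the receptor that takes up cholesteryl esters, was 10.7-fold higher than on GFP vehicle with FOXOA3 and 5.52-fold higher with the mutant, while the lipoprotein receptor Vldlr was 3.09-fold and 3.98-fold lower. Abca1 was 2.10-fold lower with FOXOA3. Acss2 was 3.61-fold and 2.94-fold lower than on GFP vehicle in the same comparisons, and Idh1 2.45-fold lower with the mutant.

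Of the 11 SREBP factors and regulators, 0 were past 2-fold with FOXOA3 against GFP vehicle. Of all measured genes 5.32% were higher and 4.01% lower there, so that this count is near those shares. With the mutant 6 were lower and 1 was higher, where 22.5% and 13.0% of all genes were. The lower ones were led by Srebf2 (log2 ratio -1.66), Nfya (-1.62), Srebf1 (-1.59) and the protease Mbtps1 (-1.41), and the higher one was Insig2 (2.03-fold). Between the FOXO1 arrays 5 of the 11 were higher with FOXOA3, among them Nfya (3.07-fold), Srebf2 (2.84-fold), Scap (2.39-fold) and Srebf1 (2.22-fold), where 1 of the 8 mevalonate genes, 0 of the 10 post-squalene genes and 19.0% of all measured genes were. Both Nfya ratios given here compare arrays of unlike spike level. The difference between these lists was not tested.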
